A study of Mus musculus with 4 samples.

Results

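Sp9 peaks that lay more than 1 kb and up to 5 kb from the nearest listed transcription start site (TSS) numbered 244 of 5847 at embryonic day 13.5 (E13.5) and 310 of 6022 at embryonic day 16.5 (E16.5). They were chosen by that distance alone: each numbered peak took the smallest distance over all genes listing it, and the distances themselves are therefore a description and not a finding. The chromatin came from the basal ganglia of CD1 mouse embryos, wild type, and was precipitated with a rabbit antibody to Sp9. There was 1 Sp9 ChIP library for each stage, beside 1 input library made with no antibody that was not analysed here on its own. No age other than these embryonic stages, no other genotype and no pooling of embryos is named in the labels. Both deposited lists name the mouse mm9 build and give each peak only as a signed distance from gene starts, so depth and peak height were unknown and no peak could be placed in an exon, intron or untranslated region. With 1 library per stage, no difference between stages has a replicate check.

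Sp9 belongs to the SP/KLF family of zinc finger transcription factors, which bind GC-rich boxes through a carboxy-terminal zinc finger domain. It is made in ganglionic eminence progenitors and in young striatal neurons, where it is needed for medium spiny neurons of the D2 type. The DNA flanking a core promoter holds proximal regulatory elements, alternative starts and, on the downstream side, the first exons and introns of the gene.

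The lists hold no coordinates from which the sequence of a peak could be read. Shown instead are 4 promoters, each from 250 bp upstream to the start, because their genes had a recurring peak 1 to 5 kb away as well as a peak at the promoter itself. Of the genes that the naming rule considered for this, 11 had a peak between 250 bp upstream and 50 bp downstream of the start as well as one 1 to 5 kb away, and these 4 were the ones whose 1 to 5 kb peak recurred. They are the RefSeq sequences of build GRCm38.p6, which may use another start than the mm9 lists. Capitals mark a GC box (GGGCGG) or a GT box (GGGTGG) on either strand; these letters do not overlap one another in the sequences shown.
Sp9 (chr2:73271676-73271925, plus strand): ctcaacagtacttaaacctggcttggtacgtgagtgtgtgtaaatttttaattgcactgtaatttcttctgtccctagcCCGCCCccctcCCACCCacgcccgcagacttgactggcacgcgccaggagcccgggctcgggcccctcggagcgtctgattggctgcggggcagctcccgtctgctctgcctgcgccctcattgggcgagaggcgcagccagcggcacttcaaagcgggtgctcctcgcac
Gad1 (chr2:70561879-70562128, plus strand): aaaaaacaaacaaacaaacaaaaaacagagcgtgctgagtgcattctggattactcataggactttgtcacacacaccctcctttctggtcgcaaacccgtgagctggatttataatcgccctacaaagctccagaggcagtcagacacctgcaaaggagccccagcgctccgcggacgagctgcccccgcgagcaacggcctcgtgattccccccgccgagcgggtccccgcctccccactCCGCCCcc
Gad2 (chr2:22622077-22622326, plus strand): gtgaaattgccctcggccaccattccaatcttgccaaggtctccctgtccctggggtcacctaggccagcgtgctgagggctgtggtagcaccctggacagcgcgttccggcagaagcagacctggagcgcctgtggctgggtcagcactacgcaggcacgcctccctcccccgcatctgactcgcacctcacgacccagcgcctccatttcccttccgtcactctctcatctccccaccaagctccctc
Ep300 (chr15:81585964-81586213, plus strand): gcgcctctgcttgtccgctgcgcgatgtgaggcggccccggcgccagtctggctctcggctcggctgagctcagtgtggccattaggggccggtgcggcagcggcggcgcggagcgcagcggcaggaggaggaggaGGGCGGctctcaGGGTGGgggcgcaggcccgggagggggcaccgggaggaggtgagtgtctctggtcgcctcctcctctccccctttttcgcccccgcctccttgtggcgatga

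The Sp9 promoter held 1 GC box and 1 GT box, starting 171 and 160 bp upstream of the RefSeq start. The E13.5 list placed a promoter peak 127 bp upstream of Sp9. The Gad1 stretch held 1 GC box, 8 bp from the start, and Gad1 had a promoter peak 40 bp upstream at E16.5. The Ep300 stretch held 1 box of each kind, at 114 and 102 bp, with a peak 173 bp upstream at E16.5. The Gad2 stretch held neither word, and its E16.5 peak lay 20 bp downstream of the start. These are matches of letters, not mapped sites.

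Across the 357 genes with a peak 1 to 5 kb away at either stage, 258 were found in the promoter table, with 377 starts. A GC box was present at 53.8% of these starts and a GT box at 33.4%. Over the 21263 starts of protein-coding genes in the table the shares were 42.6% and 30.2%. Where any listed gene also had a peak between 250 bp upstream and 50 bp downstream of its start, the share with a GC box was 72.7% of 1593 starts. Among genes with both such a peak and one 1 to 5 kb away it was 73.5% of 49 starts.

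Downstream peaks outnumbered upstream ones at both stages. At E13.5, 136 lay downstream (55.7%, 95% Wilson interval 49.5 to 61.8) and 108 upstream of the nearest TSS. At E16.5 there were 175 downstream (56.5%, 50.9 to 61.9) and 135 upstream. Intervals here cover counting error over peaks only. Downstream peaks were also the majority at 5 to 50 kb (59.0% and 57.5%) and beyond 50 kb (57.6% and 56.8%), and over all peaks they made up 53.8% and 51.2%. Promoter peaks, within 1 kb of a TSS, lay on the other side more often: 66.2% of 993 at E13.5, and at E16.5 61.5% of 1888, were upstream. The authors' assignment treats the sides unequally. A gene's basal domain reaches 5000 bp upstream but 1000 bp downstream, so an upstream peak always reaches its gene, whereas a downstream peak inside a neighbour's basal domain can be withheld from the gene it lies in. At E13.5, 2 of 108 upstream peaks were assigned to a second gene, against 132 of 136 downstream ones, and at E16.5 the counts were 2 of 135 and 170 of 175.

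The peaks were most frequent just beyond 1 kb. Between 1 and 2 kb lay 90 of the 244 peaks at E13.5 (36.9%) and 123 of the 310 at E16.5 (39.7%). The stretch from 2 to 3 kb held 60 (24.6%) and 73 (23.5%). The fewest lay between 3 and 4 kb, 41 (16.8%) and 53 (17.1%), and from 4 to 5 kb there were 53 (21.7%) and 61 (19.7%). At E13.5 the median distance was 2608 bp, compared with 2420 bp at E16.5. At E13.5 the peaks just inside the inner limit included that 1007 bp from Usp49, and those just outside it 1000 bp from Tubb2b and 997 bp from Tesk1. At the outer limit, Atrn (4947 bp) and Nedd9 (4946 bp) were the last inside, and Ptprc (5009 bp) and Wwc2 (5012 bp) the first outside. At E16.5 the corresponding peaks were those of Msrb3 (1008 bp) and Usp49 (1013 bp) inside, with Jund (999 bp) and Zfp740 (992 bp) outside. The outer limit at E16.5 fell between Wwc2 (4984 bp) and Atrn (4977 bp) inside and Gm10722 (5018 bp) outside.

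**Figure D1:**
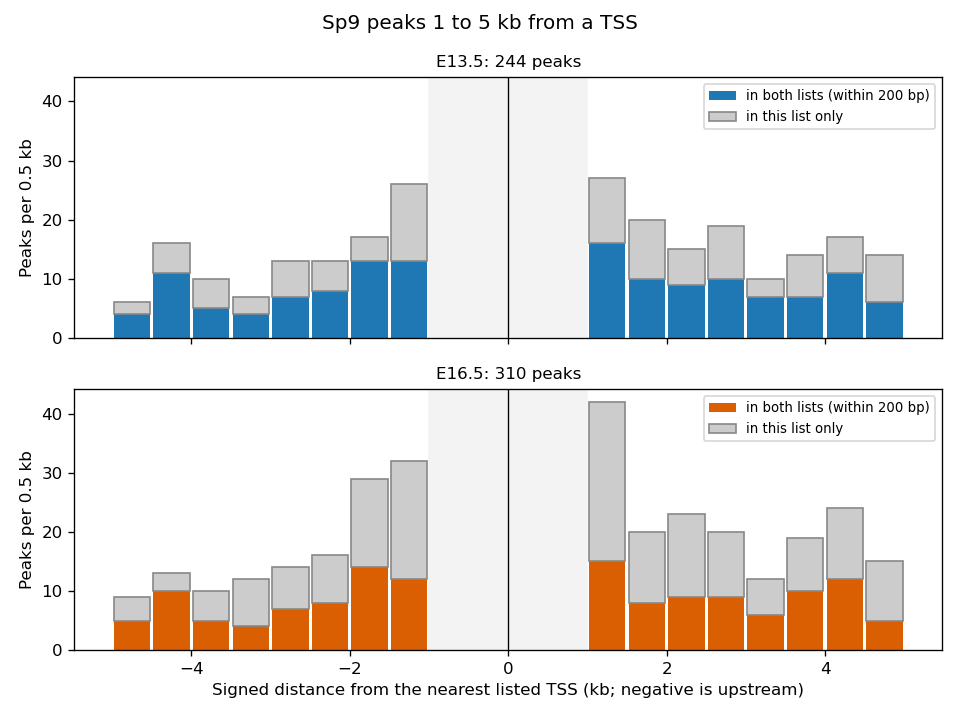
Peaks per 0.5 kb by signed distance from the nearest TSS (kb, negative is upstream) in the E13.5 list (top, 244 peaks) and the E16.5 list (bottom, 310 peaks). Coloured bars are peaks found in both lists within 200 bp, grey bars peaks of that list alone; the fullest bins at E16.5, just outside 1 kb, hold mostly grey.

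The next question was how many of these peaks were at the same place at both stages. A peak counted as recurring if, for 1 of its genes, the other stage's list gave a TSS distance within 200 bp of its own. At E13.5, 141 of 244 peaks recurred (57.8%, 51.5 to 63.8), close to the 57.9% of all E13.5 peaks. At E16.5, 139 of 310 recurred (44.8%, 39.4 to 50.4), below the 56.2% of all E16.5 peaks. Most partners kept the same distance class: 137 pairs were 1 to 5 kb from a TSS in both lists. The other 4 E13.5 partners were promoter peaks at E16.5, among them that of Ep300, which moved from 1041 to 978 bp upstream. Recurring pairs lay near each other, with a median difference of 32 bp at E13.5 (quartiles 14 and 62 bp), and 90 of the 141 within 50 bp.

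At E16.5 the 1 to 5 kb peaks stood between their neighbours in raw recurring share. They recurred more often than promoter peaks (44.8% against 33.3%; odds ratio 1.63, interval 1.27 to 2.09; two-sided Fisher's exact test, p = 0.000546 after Benjamini-Hochberg adjustment over 10 tests). They recurred less often than peaks 5 to 50 kb away (62.9% of 1199; odds ratio 0.480, 0.370 to 0.623; adjusted Fisher's exact p = 1.41e-07). At E13.5 neither difference passed: 57.8% stood against 62.9% of promoter peaks (odds ratio 0.806, 0.601 to 1.08; adjusted Fisher's exact p = 0.283) and 57.9% of peaks 5 to 50 kb away (0.995, 0.748 to 1.33; adjusted Fisher's exact p = 1). The sizes of the lists bear on these shares. Suppose every E13.5 peak of a class matched a single E16.5 peak. Then at most 78.7% of the 1 to 5 kb peaks and 52.6% of the promoter peaks at E16.5 could have recurred. Peaks 5 to 50 kb away had no such limit, as the E13.5 list held 1307 of them against 1199. The E16.5 tests make no allowance for these unequal limits, so they cannot separate a difference between classes from the list sizes. With an outer limit of 2500 bp the E16.5 difference from promoter peaks no longer passed (odds ratio 1.38, adjusted Fisher's exact p = 0.143). With each lettered entry counted as a peak, the E13.5 difference from promoter peaks passed (odds ratio 0.603, adjusted Fisher's exact p = 0.000716). The 278 entries 1 to 5 kb away then included 26 of 1 Sfi1 peak, which did not recur. Entries of 1 peak are not independent, so this p-value overstates the evidence. The tests compare peaks within 1 list, and neighbouring peaks are not independent.

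**Figure D2:**
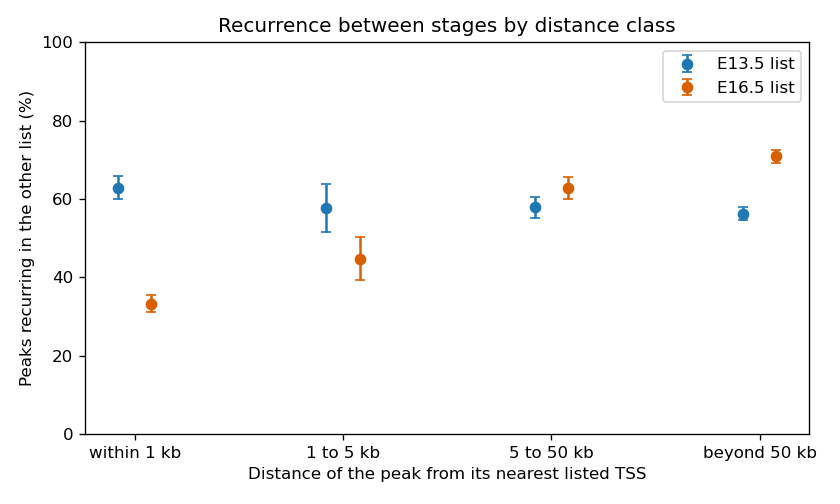
Percentage of peaks recurring in the other list by distance class, with 95% Wilson intervals, for the E13.5 list (blue) and the E16.5 list (orange). In the 1 to 5 kb class the values are 57.8% and 44.8%; the E16.5 points climb from 33.3% within 1 kb to 70.9% beyond 50 kb, while the E13.5 points stay between 56.3% and 62.9%.

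Within the 1 to 5 kb class, the side of the TSS made no difference that passed the test. Upstream peaks recurred in 60.2% of cases at E13.5 and downstream ones in 55.9% (odds ratio 1.19, 0.693 to 2.06; adjusted Fisher's exact p = 0.646). In the E16.5 list these shares were 48.1% and 42.3% (odds ratio 1.27, 0.787 to 2.04; adjusted Fisher's exact p = 0.51). These intervals allow a difference in either direction. By distance, the recurring share at E16.5 was 39.8% of the 123 peaks between 1 and 2 kb and 52.5% of the 61 peaks between 4 and 5 kb. At E13.5 it was 57.8% and 60.4%.

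Peaks that did not recur were of several kinds. At E13.5, 26 of the 244 (10.7%) had a counterpart of the same gene between 200 and 1000 bp away, and for 27 (11.1%) no gene of the peak was in the E16.5 list at all. At E16.5, 23 of the 310 (7.42%) had such a near counterpart, and for 72 (23.2%) no gene was in the E13.5 list. Meis2, a homeodomain factor of striatal neurons, was of the first kind, with peaks 2918 bp upstream at E13.5 and 2596 bp upstream at E16.5. Maml3, a coactivator of Notch signalling, had peaks 2701 and 2473 bp downstream, and the forkhead gene Foxo6 had 4586 and 4347 bp. Genes of the second kind at E16.5 included the translation factor gene Eef2 and Kdm6b, which encodes a histone demethylase, with peaks 2200 bp downstream and 2467 bp upstream. Meis2 and Kdm6b fall outside the naming rule and were chosen after their values were seen.

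**Figure D3:**
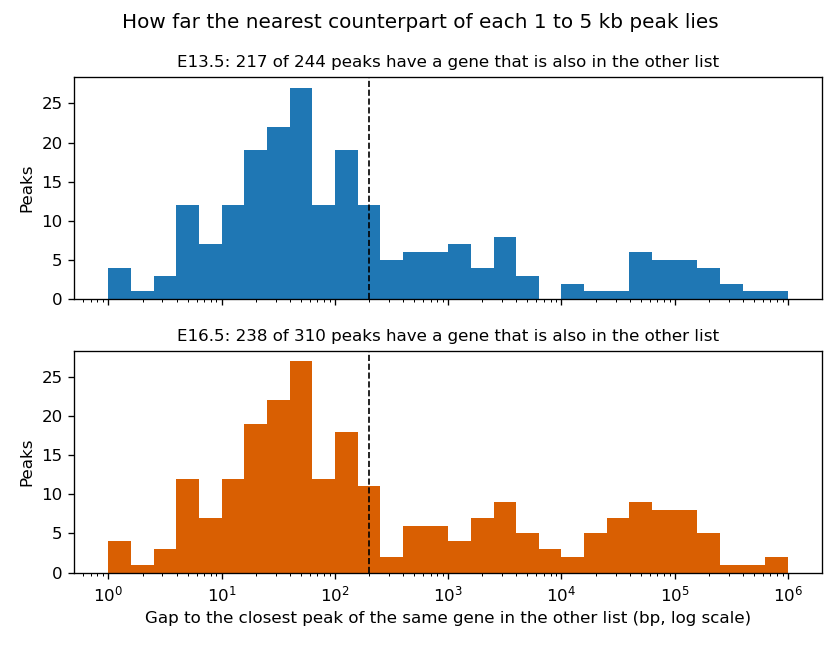
Number of 1 to 5 kb peaks by the gap (bp, log scale) to the closest peak of the same gene in the other list, for E13.5 (top) and E16.5 (bottom). The dashed line marks the 200 bp limit; the main group lies to its left, and the 27 and 72 peaks with no gene in the other list are not drawn.

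Some numbered peaks are divided in the lists into lettered entries, a second readout that the distance rule did not use. At E16.5 the divided share was higher 1 to 5 kb from a TSS (20 of 310, 6.45%) than at promoters (2.91%; odds ratio 2.3, 1.28 to 3.96; adjusted Fisher's exact p = 0.00868). It was also higher than at 5 to 50 kb (2.42%; odds ratio 2.78, 1.47 to 5.17; adjusted Fisher's exact p = 0.00316). At E13.5, 7 of 244 (2.87%) were divided, which did not differ by this test from promoter peaks (1.61%; odds ratio 1.8, 0.620 to 4.7) or peaks 5 to 50 kb away (2.60%; odds ratio 1.11, 0.409 to 2.57; adjusted Fisher's exact p = 0.318 and 0.919). Without the 15 genes that had 7 or more peaks within 50 kb, neither E16.5 call held (odds ratio 1.23, adjusted Fisher's exact p = 0.905, and 2.7, adjusted p = 0.0693). Divided peaks among these members included those of Dlx1, Klf10, Nfib and Zeb2 at E16.5, each with 2 entries. More divided at E16.5 were peaks of Cwc22 (9 entries), 1600014C10Rik (5) and 3110070M22Rik (4). Of the divided members, 0 of 7 recurred at E13.5, and at E16.5 4 of 20, against 59.5% and 46.6% of the undivided ones. Not recurring did not always mean far from a counterpart. At E13.5 the closest peak of the same gene at E16.5 lay 202, 2699 and 2801 bp away for Cwc22. For Igf1r, Vldlr, 3110070M22Rik and Sfi1 it lay 233, 283, 1358 and 15597 bp away. Several divided members shared a gene, Cwc22 at both stages and 1600014C10Rik at E16.5, so they are not independent. The contrast in recurrence between divided and undivided members was not tested.

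A peak 1 to 5 kb away often had company at its gene. In the E13.5 list 39.8% of them (33.8 to 46.0) had another peak of the same gene within 50 kb, and in the E16.5 list 47.7% (42.2 to 53.3). For promoter peaks the share was 14.6% at both stages, and for peaks 5 to 50 kb away 38.0% and 40.0%. A promoter peak at the same gene accompanied 55 of the 244 peaks at E13.5 (22.5%) and 77 of the 310 at E16.5 (24.8%). Of the 103 E13.5 peaks that did not recur, 33 belonged to a gene with a promoter peak in the E16.5 list (32.0%), near the 30.3% of all 244. Of the 171 E16.5 peaks that did not recur, 26 had one in the E13.5 list (15.2%), below the 19.0% of all 310. Among non-recurring peaks 5 to 50 kb away these shares were 13.5% and 11.2%. None of these differences was tested.

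Counted by gene, there were 220 nearest genes at E13.5 compared with 278 at E16.5, and 141 genes were on both lists, 64.1% of the first and 50.7% of the second. Most had 1 such peak: 205 genes at E13.5 and 253 at E16.5. Of the 21900 protein-coding genes of the reference table, 0.922% had a peak 1 to 5 kb away as their own at E13.5 and 1.18% at E16.5 (1.53% at either stage), which is the background for the lists that follow. The rule chose the genes by this same measure, so the counts are descriptions with no test. Some lists are partial, and further genes of a family they name had such a peak.

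Regulators of the ganglionic eminence, the embryonic source of striatal neurons and interneurons, had the highest share of the 26 lists at both stages. At E13.5, 7 of 32 genes (21.9%) had a peak 1 to 5 kb away, at E16.5 8 of 32 (25.0%), and 6 at both. Sp9 itself had such peaks on both sides of its start: 2918 bp upstream and 4564 bp downstream at E13.5, each within 200 bp of an E16.5 peak, at 2867 and 4559 bp. Sp8 and Six3, which the study placed beside Sp9, had none in this range: the nearest Sp8 peak lay 9455 bp upstream at E13.5, and Six3 had a peak 5 bp upstream at E16.5.

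The Dlx genes, homeobox factors that drive GABAergic differentiation, differed in how their peaks recurred. The peak of Dlx6 lay 1381 bp upstream at E13.5 and recurred at 1390 bp. Dlx1 had 2 peaks in this range at E13.5, 1330 and 2489 bp downstream, and 1 at E16.5, 2246 bp downstream and divided into 2 entries. The Dlx1 peaks are 243 bp or more apart between stages and so were not counted as recurring, whereas the Dlx1 promoter peak recurred at 228 and 235 bp downstream.

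Other regulators of this list spanned both outcomes. Npas1, a basic helix-loop-helix PAS factor of interneurons, kept a peak 4422 bp downstream at 4430 bp. Zeb2, a zinc finger homeobox factor of migrating interneurons, had peaks 2731 bp downstream at E13.5 and 2407 bp downstream at E16.5, outside the 200 bp limit. The orphan nuclear receptor gene Nr2f2 had one 1259 bp upstream at E16.5 alone. Otx2, a homeobox gene named after its values were seen, had one at E13.5 alone, 4158 bp downstream.

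**Figure D4:**
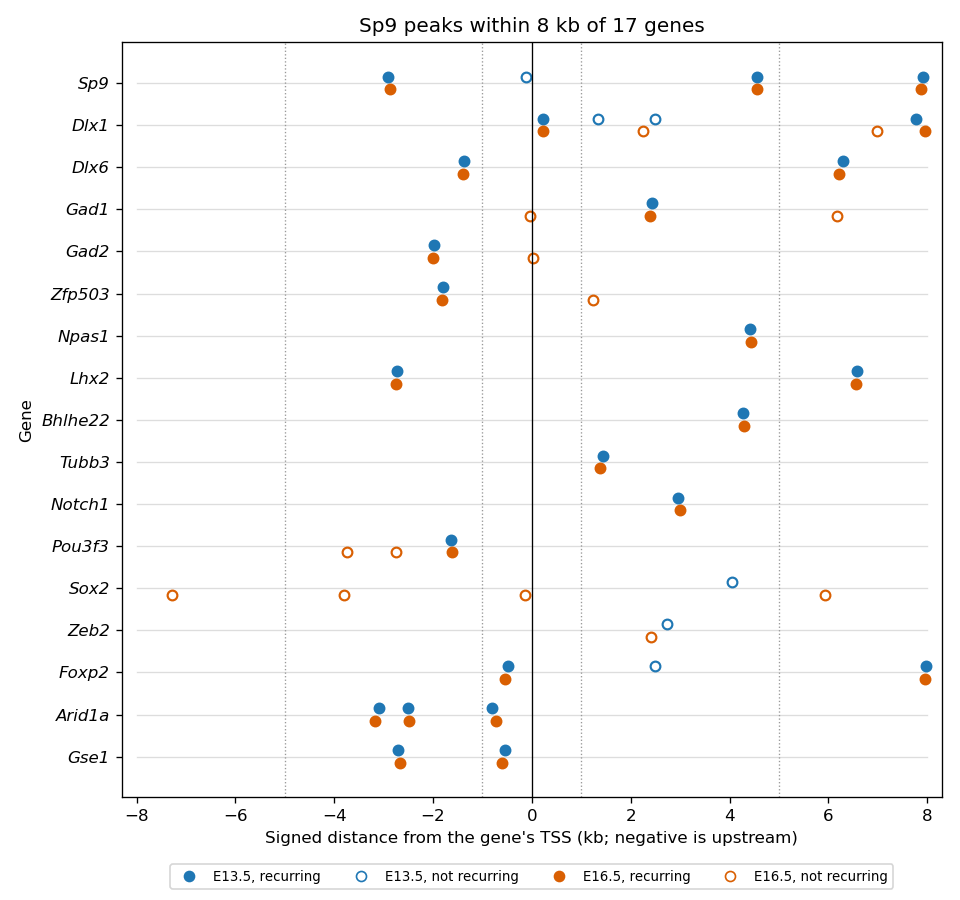
Sp9 peaks within 8 kb of the TSS of 17 genes (rows), by signed distance (kb), E13.5 in blue above E16.5 in orange; filled points recur within 200 bp in the other list and open points do not. Dotted lines mark 1 and 5 kb; Dlx6, Npas1, Notch1 and Arid1a show filled pairs, Sox2 and Zeb2 open points only.

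Genes of striatal neurons came next, with 5 of 32 (15.6%) at E13.5 compared with 6 of 32 (18.8%) at E16.5. Gad1 and Gad2 encode the enzymes that make GABA, and both kept their peak. That of Gad1 lay 2428 bp downstream at E13.5 and 2401 bp downstream at E16.5, and that of Gad2 1985 and 1994 bp upstream. Each of the pair also had a promoter peak at E16.5 alone. Zfp503, a zinc finger factor of the developing striatum, kept a peak 1789 bp upstream at 1826 bp and had a further one 1245 bp downstream at E16.5.

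The remaining striatal genes had a peak in this range at 1 stage. Foxp2, a forkhead factor of medium spiny neurons, had one 2502 bp downstream at E13.5, while its promoter peak recurred at 474 and 535 bp upstream. Ikzf2, another zinc finger factor, had one 1603 bp upstream at E16.5. Named after their values were seen, Bcl11a (3723 bp downstream) and Bcl11b (4547 bp downstream) joined at E16.5, and the opioid receptor gene Oprm1 (2699 bp upstream) was found at E13.5 only. No receptor gene that defines D1 or D2 neurons, Drd1 or Drd2, had a peak in this range in either list.

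In a partial list of radial glia genes and SOX factors, 3 of 29 (10.3%) had a peak at E13.5 compared with 4 of 29 (13.8%) at E16.5. Sox14, not counted there, had one 3405 bp downstream at E13.5. Pou3f3, a POU factor of neural precursors, kept a peak 1634 bp upstream at 1618 bp, and the E16.5 list added 2757 and 3739 bp upstream. Sox12 had 1643 and 1543 bp downstream. Sox2, a factor of neural stem cells, had a peak on each side of its start: 4056 bp downstream at E13.5 and 3808 bp upstream at E16.5, so no peak recurred. Nfib, of the nuclear factor I family, had a divided peak 1528 bp upstream at E16.5 only.

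Chromatin regulators included 4 of 44 genes (9.09%) at E13.5 compared with 5 of 44 (11.4%) at E16.5. Arid1a, a subunit of the BAF remodelling complex, kept 2 peaks: 3091 and 2507 bp upstream at E13.5, and 3170 and 2483 bp at E16.5. A promoter peak of Arid1a, 802 bp upstream, recurred at 723 bp as well. Chd3, a chromodomain helicase, had 2625 and 2536 bp downstream. Gse1 had 2713 and 2677 bp upstream. Ep300, a histone acetyltransferase, had its 1041 bp peak of E13.5 just across the promoter limit at E16.5. Brd2, a bromodomain protein, had 2169 bp downstream at E16.5 only.

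The SP and KLF factors included 3 of 26 genes (11.5%) at E13.5 compared with 2 of 26 (7.69%) at E16.5. Besides Sp9, Klf10 had peaks 1712 bp downstream at E13.5 and 1280 bp downstream at E16.5, 432 bp apart. Sp3 had a peak 1044 bp downstream at E13.5, while its promoter peak recurred at 567 and 673 bp. Forkhead factors had 3 of 44 (6.82%) at each stage, among them Foxo3 at E16.5 only, 1020 bp upstream. A wider list of homeobox families had 8 of 145 (5.52%) at each stage, and among its genes not yet described Irx5 kept 1707 bp upstream at 1703 bp. The list is inexact, as it counted Lmo4, a LIM-only gene without a homeobox. It did not count the homeobox genes Msx1 (4345 and 4228 bp upstream), Uncx (2597 bp upstream, E13.5) and Homez (3569 bp upstream, E16.5).

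Among the signalling lists, the Notch pathway had 2 of 22 (9.09%) at both stages: the receptor gene Notch1 kept 2953 bp downstream at 3006 bp, and Maml3 did not recur. The Wnt, FGF, BMP and hedgehog list had 1 of 46 (2.17%) at E13.5 compared with 3 of 46 (6.52%) at E16.5. The Wnt receptor gene Fzd8 kept 1783 bp upstream at 1710 bp. Nog, a BMP antagonist, had 3965 bp downstream, and Spry2, an inhibitor of receptor tyrosine kinase signalling, 1748 bp upstream, at E16.5 only. Fgf11 and Bmpr2, not counted in this list, had E16.5 peaks 1112 and 1100 bp upstream. Axon guidance genes had 2 of 42 (4.76%) and 1 of 42 (2.38%). Efna5, an ephrin, kept 1620 bp upstream at 1595 bp, and had a further peak 1182 bp upstream at E13.5 that did not recur. Plxna1, a semaphorin receptor, had 2658 bp downstream at E13.5 only.

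Of lists for neighbouring lineages, the pallial glutamatergic one had 2 of 19 genes (10.5%) at both stages. Both kept their peak: the LIM homeobox gene Lhx2 at 2737 and 2747 bp upstream, and Bhlhe22 at 4282 and 4296 bp downstream. General neuronal genes had 1 of 21 (4.76%), namely Tubb3, the neuronal beta tubulin, at 1431 and 1384 bp downstream. Cell cycle genes had 1 of 23 at E13.5, cyclin D2 (Ccnd2) at 1686 bp upstream, and 0 at E16.5. For other cell types, 0 of 10 oligodendrocyte lineage genes and 0 of 14 endothelial, microglial and blood genes had a peak in this range at either stage, which allows shares of up to 30% and 21.4%. Liver and heart muscle had 1 of 14 at E16.5, the fibrinogen gene Fga at 1417 bp downstream.

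Of the synapse and membrane lists, the receptors for glutamate, GABA and glycine had 1 of 53 (1.89%) at E13.5 compared with 3 of 53 (5.66%) at E16.5. Gabrb2, a GABA receptor subunit, kept 1739 bp upstream at 1750 bp, and the glutamate receptor genes Gria1 and Grm8 had 2092 and 1387 bp upstream at E16.5 only. Cadherins and protocadherins had 1 of 95 (1.05%) at both stages, Pcdh9, at 1497 and 1460 bp downstream. Synaptic adhesion genes had 1 of 41 at each stage, Nrxn2 (2163 bp upstream) at E13.5 and Adgrl1, listed as Lphn1 (2584 bp downstream), at E16.5. Nuclear receptors had 1 of 42 and 2 of 42, and the peaks of Esrrg lay on opposite sides, 2625 bp downstream and 2082 bp upstream.

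Among lists of general cell function, ribosomal protein genes had 0 of 155 and potassium, sodium and calcium channels 0 of 137 at either stage, which allows shares of up to 1.94% and 2.19% (counting error only), above the background. Housekeeping genes had 0 of 17, which allows up to 17.6%. Translation factors had 0 of 71 at E13.5 compared with 2 of 71 (2.82%) at E16.5, Eef2 and Eif4a1 (1061 bp downstream). Splicing and RNA-binding factors had 1 of 135 (0.74%) at each stage, Rbm20 (3909 bp downstream) at E13.5 and Hnrnpm (1491 bp downstream) at E16.5. The Zfp zinc fingers, near the background with 4 of 397 (1.01%) and 6 of 397 (1.51%), included Zfp608, at 1026 and 1095 bp upstream, and Zfp667, at 2715 and 2700 bp upstream. They also included Zfp467 (1509 bp downstream, E16.5 only) and Zfp36l1, at 2441 and 2583 bp upstream, whose product binds RNA.

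**Figure D5:**
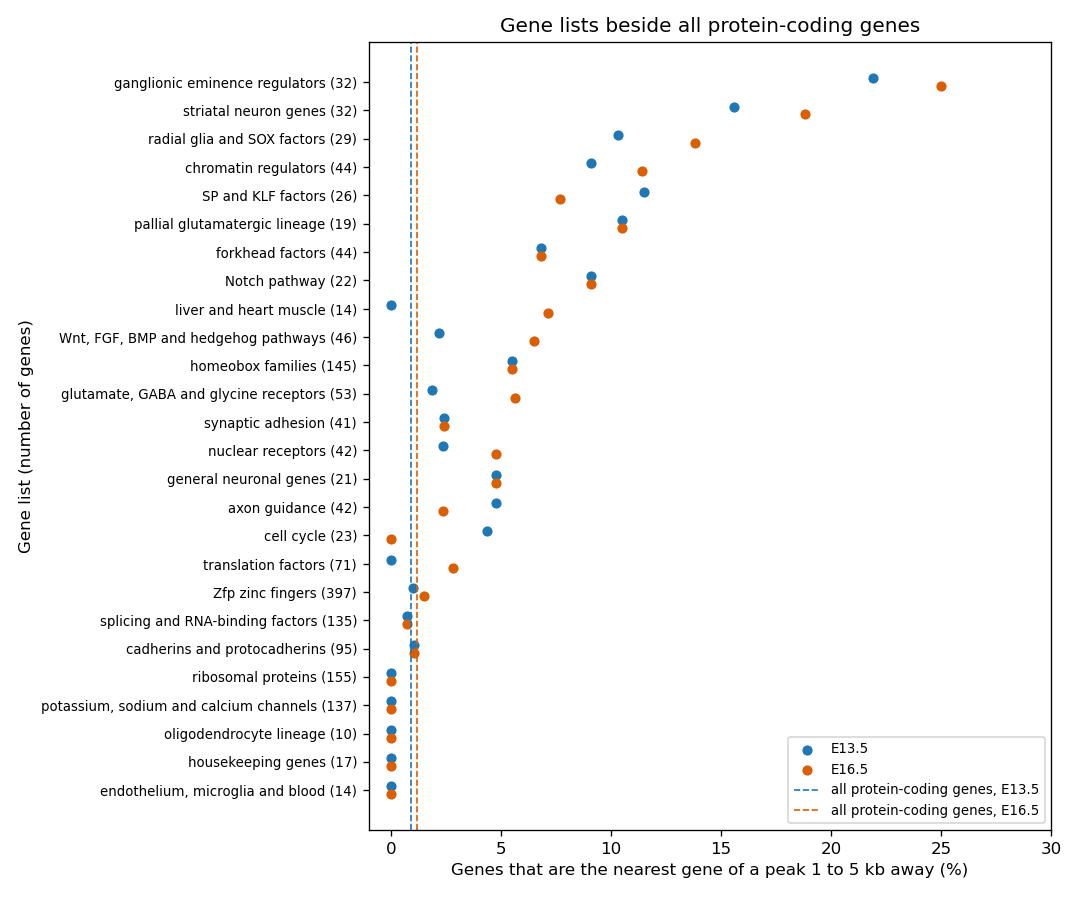
Percentage of each list's genes that are the nearest gene of a peak 1 to 5 kb away, at E13.5 (blue) and E16.5 (orange), for 26 lists with their number of genes. Dashed lines are the shares of all protein-coding genes, 0.922% and 1.18%; the list of ganglionic eminence regulators stands at 21.9% and 25.0%.

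A few peaks lay within 5 kb of the starts of different genes: 11 of 244 at E13.5 compared with 14 of 310 at E16.5. Some of them were present at both stages. The peak 1563 bp downstream of 5930403N24Rik lay 2195 bp upstream of Marcks, a substrate of protein kinase C, and recurred at 1533 and 2165 bp. The peak 1540 bp downstream of Gm10655 lay 2732 bp upstream of the corepressor gene Tle3 and recurred at 1700 and 2892 bp. The neighbours Gm10800 and Gm10801 shared 2 peaks, both downstream of either start; the nearer lay 1679 bp from Gm10801 and 3385 bp from Gm10800 and recurred at 1663 and 3401 bp. The peak 4135 bp downstream of Fam134c lay 4180 bp upstream of Tubg1, a gamma tubulin gene, and recurred at 4186 and 4231 bp.

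Among the genes with the most peaks in this range, named and unnamed loci were mixed. Over both lists Gm10718 had 9, and 4 of its 5 at E13.5 recurred, as did 4 of 4 at E16.5. Cwc22, which encodes a spliceosome-associated protein, had 7, none recurring, and Gm10722 had 6, all recurring. Mrgpra3, a sensory neuron receptor gene, had 5 with none recurring, and Znrf4 had 5, of which 2 recurred at each stage. Then followed 8 genes with 4 each, namely 1600014C10Rik, 3110070M22Rik, 4922502B01Rik, Arid1a, Hmgn2, Pou3f3, Sp9 and Toporsl. Hmgn2, a nucleosome-binding protein, kept 2391 and 1524 bp upstream at 2399 and 1512 bp. Dense runs of peaks extended beyond this range at some of these genes. At Cwc22, an E16.5 peak 27911 bp downstream was divided into 58 entries. Whether such runs are Sp9 binding or artefacts was not tested. Leaving out all genes with 7 or more peaks within 50 kb removed 19 members at E13.5 and 25 at E16.5.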

How the data were processed

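Peak lists of the Sp9 ChIP libraries at E13.5 and E16.5 were analysed, 1 library a stage. Per the submitters' processing notes, the tools were MACS2 2.1.0, BWA 0.6.2, bcl2fastq 1.8.4 and CASAVA 1.8.2, on build mm9, with no roles stated; for the threshold of the peak calls, the sources used here give nothing. What was deposited is text in no standard unit (a peak number and a distance). Per the file headers, the authors assigned peaks to genes whose domain, 5000 bp upstream and 1000 bp downstream extended up to 1000000 bp, reached them. Lettered entries of a number were counted as 1 peak, and repeated rows of a gene were joined. Upstream means a negative distance.

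Depth was unknown; the number of peaks alone sets the precision. Shares have 95% Wilson intervals. The 10 two-sided Fisher's exact tests were Benjamini-Hochberg adjusted with a threshold of 0.05 (scipy 1.17.1, Python 3.11.15, matplotlib 3.10.9). Matching and test were tested on simulated data. The simulated shifts lay well below or well above the 200 bp limit, so matching close to that limit was not tested. Gene names were matched by symbol or synonym to a GRCm38.p6 table, used for names and gene type, not for coordinates: 210 of 220 at E13.5, and at E16.5 265 of 278.

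The members, the 26 gene lists and the rules were chosen with earlier results of these data known. The naming rule took Sp8, Sp9 and Six3, up to 5 genes per list (recurring peaks first), the 10 genes with most such peaks, the peaks beside each limit, pairs of genes sharing a peak at both stages, and 4 promoters. The 17 genes drawn by position were picked after values were seen. Alternatives changed the matching, the counting of peaks and the distance limits. A few results that the naming rule selects are not reported here.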

Additional observations from a re-analysis of the deposited data

Results flagged for a closer look

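Peaks 1 to 5 kb from a TSS stood on opposite sides of promoter peaks at the 2 stages. They recurred less often than promoter peaks in the E13.5 list (odds ratio 0.806) and more often in the E16.5 list (odds ratio 1.63). Only the second passed its test, and the difference between the stages was not tested. The recurring counts were nearly equal in the lists of the 2 stages: 625 and 628 promoter peaks, and 141 and 139 peaks 1 to 5 kb away. Among the peaks 1 to 5 kb away, 137 were the same pairs in both lists. The totals differed more: the E16.5 list held 1888 promoter peaks against 993 at E13.5, and 310 peaks 1 to 5 kb away against 244. Matching works the same in both directions, and over all peaks 3383 recurred in each list. Nearly equal recurring counts therefore follow from the rule and are not a finding. A stage difference in the odds ratio cannot be told apart from the differing totals.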

How the results depend on the processing

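No paired analysis was possible because each stage has 1 library. Under all 9 alternatives 1 to 5 kb peaks recurred less often than peaks 5 to 50 kb away at E16.5 (odds ratios 0.406 to 0.590, highest adjusted Fisher's exact p 0.0391). Matching through the nearest gene only, and matching each peak at most once, returned the main value of 0.480. No alternative allowed for the unequal list sizes. Against promoter peaks at E16.5 the odds ratio ranged from 1.38 to 1.89 and lost its call with an outer limit of 2500 bp (1.38). At E13.5 the odds ratio against promoter peaks turned to 1.07 with matching within 100 bp. It passed its test at 0.603 with each lettered entry counted, 26 of them from 1 Sfi1 peak that did not recur. Against peaks 5 to 50 kb away at E13.5, where no setting passed, it turned to 1.26 and 1.38 with matching within 500 and 1000 bp, 1.03 without genes of 7 or more peaks, 1.09 with upstream peaks only and 1.02 with the 2500 bp limit. Without genes of 7 or more peaks, the odds ratio of divided peaks fell to 1.23 against promoter peaks and 2.7 against peaks 5 to 50 kb away at E16.5, both losing their call, and turned to 0.872 against promoter peaks at E13.5. With upstream peaks only, that against peaks 5 to 50 kb away was 2.73 and lost its call. The recurring share became 49.2% (E13.5) and 38.7% (E16.5) with matching within 100 bp, 65.6% at E13.5 within 500 bp, 68.4% and 52.3% within 1000 bp, and 50.7% at E13.5 by lettered entries. The number of peaks was 108 and 135 upstream only and 118 and 162 within 2500 bp, by the construction of these settings. Upstream against downstream kept its direction and did not pass under any setting. Other than where a setting by its construction leaves out peaks or counts 1 peak more than once, the cause of these changes was not tested. Genes with such a peak numbered 229 and 288 when every start within range was counted. The unknown depth limits every absence: a gene without a peak may hold weaker binding.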

Other observations

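Several genes of transmitter chemistry and synapses lay outside the gene lists and were picked after their values were seen. Th, the gene of tyrosine hydroxylase, the enzyme that limits dopamine synthesis, had a peak 3140 bp upstream that recurred at 3145 bp. Slc18a2, the vesicular monoamine transporter gene, had one 4509 bp downstream that recurred at 4532 bp. Bdnf, a neurotrophin gene, had one 4008 bp downstream that recurred at 3956 bp. The postsynaptic scaffold genes Dlg4 and Homer1 kept peaks 4505 bp downstream (4365 bp at E16.5) and 4033 bp upstream (4134 bp). The neural zinc finger genes Myt1 and Myt1l had peaks at 3748 and 2106 bp downstream, which recurred at 3749 and 2132 bp. The Groucho corepressor gene Tle1 kept one 4551 bp downstream at 4501 bp, and its relative Tle2 had one 4556 bp upstream at E16.5 only.

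Some further single genes, again picked after their values were seen, had a peak in this range at E16.5 only. Map1b, a microtubule-associated protein gene, had a divided peak 1329 bp downstream, and Fscn1, which encodes an actin-bundling protein, one 1654 bp downstream. Basp1, a growth cone protein gene, had one 1440 bp downstream. Vegfa and Tgfb1 had peaks 4614 bp downstream and 1693 bp upstream. The peak 1053 bp downstream of Trp53 lay 2088 bp upstream of its neighbour Wrap53. For Fscn1, Vegfa, Tgfb1 and Trp53 the E13.5 list held no peak of any gene to which the peak was assigned. Sfi1 had the most divided peak of this range, 2986 bp downstream at E13.5 with 26 entries.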
